A study of Mus musculus with 2 samples.

Results

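The genes described here make cholesterol and fatty acids, and were compared between 2 arrays, both labelled as bEnd3 cells. Sex-linked and cell type markers given below go against RNA of 1 cell line on both arrays. The genes were chosen by name, with earlier results of these data known. Used were the probe sets annotated to exactly 1 gene of a list of 36 genes. Of these, 35 had such a probe set, among 18193 genes with one in the whole table, and Acat2 is not analysed here. The list has 86 probe sets, of which 69 reached the floor on both arrays, 8 on 1 array and 9 on neither. The floor is the median signal of all probe sets on an array, 22.8 after normalization, and a signal below it is treated as not measured. On both arrays, the brightest probe set of each of the 35 genes reached the floor.

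bEnd3 is an endothelial line from mouse cerebral cortex microvessels, of the BALB/c strain, transformed with polyoma middle T antigen. In both groups a retrovirus carried an siRNA, against Smad4 in one and a control siRNA in the other, and infected cells were selected with puromycin. Each group had 1 Affymetrix array, made with total RNA pooled from 2 infections. Smad4 is the partner that receptor-activated Smads share when they act downstream of TGF-β and BMP receptors. By its labels, the design compares transcripts of these cells with and without an siRNA to Smad4.

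Cells build cholesterol from acetyl-CoA through mevalonate, isoprenoid pyrophosphates, squalene and lanosterol. The transcription factor SREBP-2, encoded by Srebf2, drives most genes of this route when sterol in the endoplasmic reticulum is low, and SREBP-1, encoded by Srebf1, is best known for fatty acid genes. Both precursors are held in the endoplasmic reticulum by the Insig proteins and carried to the Golgi for cleavage by Scap. Fatty acids are built from the same acetyl-CoA by acetyl-CoA carboxylase and fatty acid synthase, and are then lengthened by elongases and given double bonds by desaturases.

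There were no replicates, so no test was made, no difference was checked against biological spread, and precision is limited by the number of arrays. The only error that can be given is technical. Across 4546 genes, the pooled SD of log2 ratios within a gene's probe sets was 0.47, which leaves out the spread between arrays and cultures. Smad4 mRNA itself was no lower in the sample labelled Smad4-siRNA, at 1165 against 916 in the control by its brightest probe set (log2 ratio 0.35, or -0.07 before normalization). It is therefore called the array labelled Smad4-siRNA, and "higher" and "lower" give its direction against the Control-siRNA array, as do the signs of all log2 ratios.

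The arrays also differed in markers of cell identity. All 12 endothelial markers reached the floor under the control label, but only 6 did so under the Smad4-siRNA label, where Pecam1, Tek, Tie1, Cldn5, Esam and Emcn fell short of it. Their summed signal was 488 under the Smad4-siRNA label and 22578 under the control label. In the same order, 7 and 1 of 9 fibroblast markers were measured, the 1 being Pdgfra, with summed signals of 20328 and 148. Of 8 pericyte and smooth muscle markers, 4 and 2 reached the floor, with summed signals of 3012 and 91.9. Among these Des went the other way, with 13.7, below the floor, and 36.2. Leukocyte markers (2 of 6 at the floor on each array, summed 83.5 and 873) and astrocyte markers (1 and 0 of 5, summed 94.00 and 57.1) were mostly below it. The leukocyte sums differed mainly through Cd68 (35.2 and 820), while Csf1r had 23.2 and 28.2. All these sums include signals below the floor. For a cell type marker, fewer cells of that type and less RNA per cell cannot be told apart in bulk samples. Xist, the X-inactivating RNA of female cells, had 4476 under the Smad4-siRNA label and 20.7 under the control label. The Y-linked Eif2s3y went the other way, with 0.349 and 324, as did Kdm5d (4.69 and 122) and Uty (4.03 and 112). These values go against RNA of 1 cell line on both arrays, although both are labelled as bEnd3 cells. In every ratio below, a different origin of the cells cannot be told apart from the siRNA.

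Of the 35 genes, 22 were higher by 2-fold or more, 0 were lower by as much, and 13 lay within 2-fold. Of all 9479 genes measured on both arrays, 12.6% were higher and 15.0% lower by 2-fold or more. Because the list was made with earlier results known, these shares describe it and do not test for enrichment. The median log2 ratio was 1.23 over the 35 genes and -0.15 over all genes measured on both arrays. For the values as deposited, 17 of the 35 passed 2-fold upward and 2 downward, beside 10.5% and 20.8% of all genes, and the medians were 0.999 and -0.34. The higher genes lay mostly in the sterol route and among the desaturases, while the genes that build the fatty acid chain itself were close to level. At single probe sets, 40 of the 69 measured on both arrays passed 2-fold upward and 1 downward, beside 11.3% and 15.0% of all such probe sets.

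**Figure D1:**
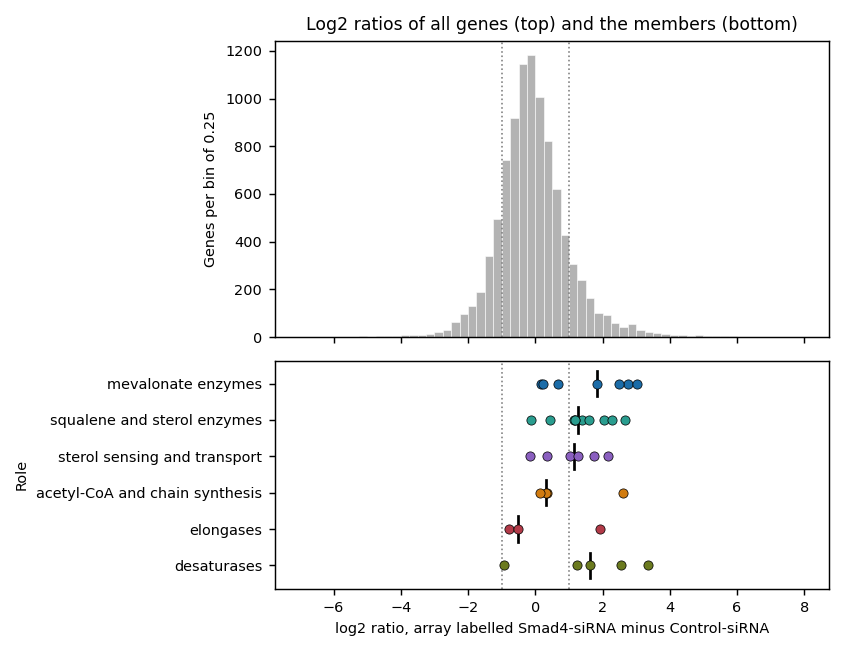
Top, histogram of the log2 ratio (array labelled Smad4-siRNA minus Control-siRNA) of all 9479 genes measured on both arrays, in genes per bin. Bottom, the 35 genes by role on the same axis, 1 point per gene with a bar at the median of the role, and dotted lines at 2-fold. The bulk of all genes is centred near -0.15, while 22 of the 35 genes lie to the right of the 2-fold line and 0 to the left.

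Promoter sequences are shown for genes on which the comparison turns: the sterol genes Hmgcs1 and Cyp51, the sterol-sensing genes Insig1 and Srebf2, and, as genes that were level or lower, Fasn and Fads3. They are RefSeq windows on GRCm38.p6, running 5′ to 3′ from 250 bases before to 50 bases after the start site. Capitals mark matches on either strand to a sterol regulatory element (TCACNCCAC), an E-box (CACGTG) and an NF-Y box (CCAAT, or ATTGG on the opposite strand).
Hmgcs1, chr13:119690101-119690400, + strand: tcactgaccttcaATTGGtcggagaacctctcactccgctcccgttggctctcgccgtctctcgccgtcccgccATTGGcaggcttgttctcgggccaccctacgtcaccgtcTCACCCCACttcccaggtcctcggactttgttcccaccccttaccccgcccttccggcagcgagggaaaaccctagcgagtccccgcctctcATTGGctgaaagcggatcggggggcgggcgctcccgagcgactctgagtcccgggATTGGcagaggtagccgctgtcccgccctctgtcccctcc
Cyp51, chr5:4104648-4104947, - strand: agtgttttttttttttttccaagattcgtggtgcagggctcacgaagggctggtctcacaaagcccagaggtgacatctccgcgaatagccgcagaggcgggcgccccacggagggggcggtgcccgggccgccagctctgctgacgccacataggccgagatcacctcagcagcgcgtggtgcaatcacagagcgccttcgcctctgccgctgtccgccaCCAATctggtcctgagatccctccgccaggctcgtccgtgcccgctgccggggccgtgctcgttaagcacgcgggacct
Insig1, chr5:28071162-28071461, + strand: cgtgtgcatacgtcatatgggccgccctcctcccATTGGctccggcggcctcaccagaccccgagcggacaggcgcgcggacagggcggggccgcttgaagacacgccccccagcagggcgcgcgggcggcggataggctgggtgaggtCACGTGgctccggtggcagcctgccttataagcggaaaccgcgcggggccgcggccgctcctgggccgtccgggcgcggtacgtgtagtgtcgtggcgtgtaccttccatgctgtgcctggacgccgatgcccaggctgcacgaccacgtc
Srebf2, chr15:82147019-82147318, + strand: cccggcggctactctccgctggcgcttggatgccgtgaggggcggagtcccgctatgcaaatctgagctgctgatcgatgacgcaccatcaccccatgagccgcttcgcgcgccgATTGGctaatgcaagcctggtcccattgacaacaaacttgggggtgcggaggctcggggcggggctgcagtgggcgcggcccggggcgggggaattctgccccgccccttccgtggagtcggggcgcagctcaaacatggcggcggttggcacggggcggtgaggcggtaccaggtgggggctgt
Fasn, chr11:120824498-120824797, - strand: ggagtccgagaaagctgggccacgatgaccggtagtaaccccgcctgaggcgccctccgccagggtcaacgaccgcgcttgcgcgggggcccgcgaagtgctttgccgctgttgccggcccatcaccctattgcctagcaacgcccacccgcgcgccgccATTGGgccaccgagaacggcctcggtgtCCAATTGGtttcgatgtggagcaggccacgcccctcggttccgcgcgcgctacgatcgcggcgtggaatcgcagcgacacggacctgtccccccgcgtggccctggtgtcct
Fads3, chr19:10041298-10041597, + strand: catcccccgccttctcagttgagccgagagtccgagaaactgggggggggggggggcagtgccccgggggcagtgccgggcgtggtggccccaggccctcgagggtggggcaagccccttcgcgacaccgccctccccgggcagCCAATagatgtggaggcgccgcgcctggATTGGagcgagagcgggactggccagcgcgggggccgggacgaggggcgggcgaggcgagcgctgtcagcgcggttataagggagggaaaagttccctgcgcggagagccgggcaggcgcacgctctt
The Hmgcs1 window holds the sterol regulatory element match at position -137 from the start site, with NF-Y matches at positions -237, -176, -45 and 10. In the Fasn window, NF-Y matches at positions -62 and -59 overlap on opposite strands. Fasn and Fads3 hold NF-Y matches as Hmgcs1 does, although neither was 2-fold higher.

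Over all members with a RefSeq window (28 of the 35 genes, all but Fdps, Fdft1, Sqle, Stard4, Scd1, Scd2 and Fads1), the NF-Y box was the motif that most members held. It was found in 24 of the 28 genes (85.7%). Among genes with a window it was in 43.1% of the 7799 measured on both arrays and in 41.1% of all 27025. It was found in 13 of the 16 higher genes and in 11 of the 12 genes within 2-fold, so its presence did not separate them. The E-box was in 6 of the 28 genes (21.4%), beside 12.5% of measured genes and 8.09% of all genes with a window. Of the 6 genes, 5 (Hsd17b7, Sc5d, Dhcr7, Scap and Insig1) were higher while Elovl5 was not. The E-box was thus in 5 of the 16 higher genes and 1 of the 12 within 2-fold. Whether it goes with the ratios was not tested. The sterol regulatory element letters were in Hmgcs1 alone among the 28 genes. They were in 1.31% of measured genes and 1.44% of all genes with a window. The GC box GGGCGG was in 22 of the 28 (78.6%), close to the 72.6% of measured genes. It was in 38.2% of all genes with a window. A match is a run of letters and not a measured binding site. Only exact matches were counted, so a window with a near match to a motif counts as having none.

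The mevalonate enzymes split into a group past 2-fold and a group within it. Of 7 enzymes, 4 were past 2-fold upward, 0 downward and 3 were within it, with a median log2 ratio of 1.84. Hmgcs1, the synthase that makes HMG-CoA and whose promoter is printed above, had a signal of 1704 under the Smad4-siRNA label and 250.1 under the control label. It was 6.82-fold higher, and its other probe sets on both arrays had log2 ratios of 2.81, 3.12 and 2.80, so that all 4 lay close together, and a dim one below the floor in the control was at least 2.42-fold higher. Idi1, the isomerase that makes dimethylallyl pyrophosphate, had a signal of 740.5 under the Smad4-siRNA label and 91.5 under the control label. It was 8.09-fold higher, with a log2 ratio of 2.005 in its other probe set against 3.02 in the brightest. Fdps, which makes farnesyl pyrophosphate, had a signal of 1186 under the Smad4-siRNA label and 209 under the control label, 5.66-fold higher. Pmvk, the kinase that acts on phosphomevalonate, had a signal of 153 under the Smad4-siRNA label and 42.7 under the control label. It was 3.58-fold higher by its only probe set.

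Neighbouring steps of the same route stayed within 2-fold, though both probe sets of Mvd were above 0. Mvk, the mevalonate kinase just before Pmvk, had a signal of 81.7 under the Smad4-siRNA label and 72.4 under the control label, with log2 ratios of 0.18 and 0.02. Mvd, the decarboxylase just after Pmvk, had a signal of 129 under the Smad4-siRNA label and 80.4 under the control label, with log2 ratios of 0.68 and 0.39. Of these, the brighter Mvd probe set alone had a ratio larger than the technical SD of 0.47. Ggps1, which makes geranylgeranyl pyrophosphate for protein prenylation and so lies on a side branch, had a signal of 144 under the Smad4-siRNA label and 122 under the control label. Its 4 probe sets had log2 ratios between -0.02 and 0.24.

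Enzymes from squalene onward were higher at most steps. Of 10 genes, 8 were past 2-fold upward, 0 downward and 2 were within it, with a median log2 ratio of 1.28. Fdft1, the squalene synthase that commits farnesyl pyrophosphate to sterols, had a signal of 944 under the Smad4-siRNA label and 229 under the control label. It was 4.13-fold higher, with a log2 ratio of 2.20 in a second probe set, while a pair of further probe sets were below the floor on both arrays. Sqle, the squalene epoxidase and a rate-controlling step, had a signal of 1097 under the Smad4-siRNA label and 421 under the control label. It was 2.61-fold higher after normalization, and for the values as deposited its log2 ratio of 0.999 was just under 2-fold. Lss, which closes the ring to lanosterol, had a signal of 178 under the Smad4-siRNA label and 78.4 under the control label. Its 3 probe sets disagreed, with log2 ratios of 1.19, 1.90 and -0.01.

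Cyp51, the lanosterol demethylase, had a signal of 741 under the Smad4-siRNA label and 117 under the control label. It was 6.33-fold higher, and its other probe set on both arrays had a log2 ratio of 2.75. Nsdhl, which works with Hsd17b7 in removing the methyl groups at carbon 4 of the ring, had a signal of 739.9 under the Smad4-siRNA label and 152 under the control label, 4.87-fold higher. Hsd17b7 was higher by less, with a signal of 196 under the Smad4-siRNA label and 88.5 under the control label, and its 3 probe sets on both arrays had log2 ratios from 1.06 to 1.32. Sc5d, the lathosterol desaturase, had a signal of 804 under the Smad4-siRNA label and 357 under the control label. Its log2 ratio was 1.17, and a dimmer probe set had 1.96. The dimmest Sc5d probe set, below the floor in the control, was at least 1.27-fold higher. Dhcr7, which reduces 7-dehydrocholesterol to cholesterol, had a signal of 199 under the Smad4-siRNA label and 66.1 under the control label, 3.01-fold higher. Of these, Sc5d by its brightest probe set was within 2-fold for the values as deposited (log2 ratio 0.81).

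The exceptions after squalene were Tm7sf2 and Ebp. Tm7sf2, a sterol C14 reductase whose step Lbr can also perform, had a signal of 99.5 under the Smad4-siRNA label and 73.4 under the control label, a log2 ratio of 0.44. Ebp, the isomerase that moves the ring double bond before Sc5d acts, had a signal of 275 under the Smad4-siRNA label and 302 under the control label, a log2 ratio of -0.13 (-0.43 as deposited). Ebp and Nsdhl both lie on the X chromosome, on arrays that differed in Xist. Whether this bears on their ratios was not tested.

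**Figure D2:**
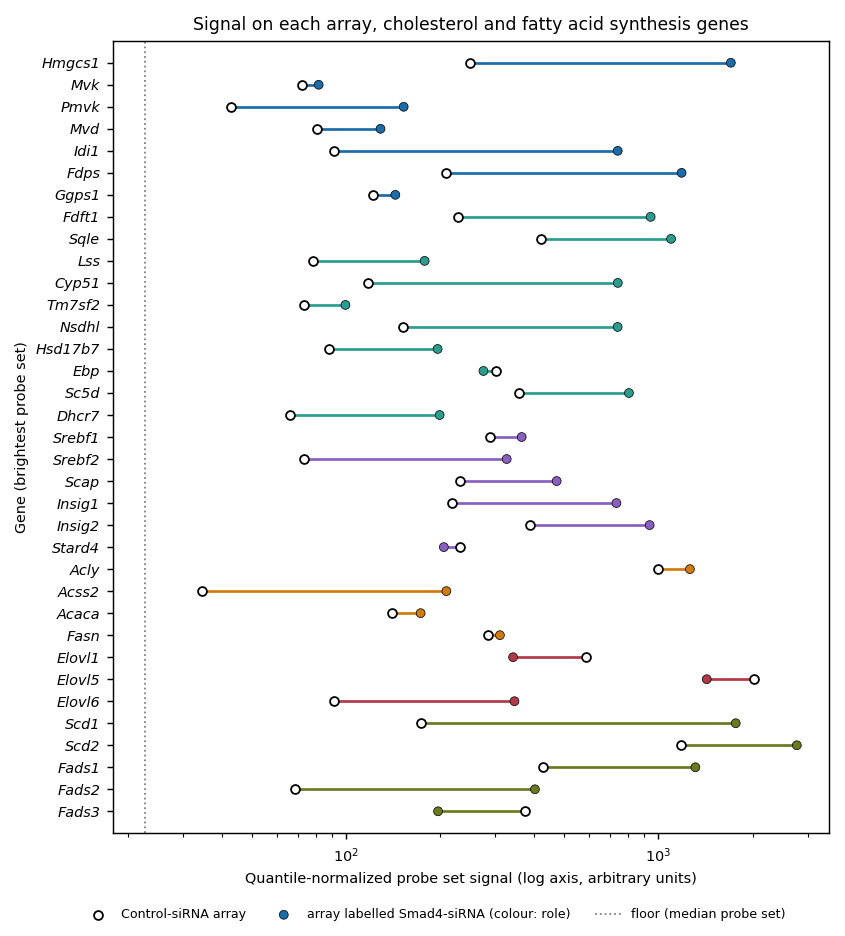
Quantile-normalized signal of the brightest probe set of each of the 35 genes (log axis, arbitrary units) on the Control-siRNA array (open circles) and on the array labelled Smad4-siRNA (filled circles, coloured by role), joined by a line. The dotted line is the floor of 22.8, and signals are to be compared within a gene only. The lines of Hmgcs1, Idi1, Acss2, Scd1 and Fads2 are among the long ones that run to the right, while those of Elovl1, Elovl5 and Fads3 run to the left.

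Among the 6 genes of sterol sensing and transport, 4 were past 2-fold upward and 2 within it, with a median log2 ratio of 1.15. Srebf2 had a signal of 327 under the Smad4-siRNA label and 73.6 under the control label. It was 4.44-fold higher, with a log2 ratio of 2.59 in its other probe set. Srebf1 had a signal of 365 under the Smad4-siRNA label and 289.6 under the control label, a log2 ratio of 0.33 that was 0.02 as deposited. The transcripts of the 2 factors thus differed in their ratios by more than the technical SD, with Srebf2 far higher and Srebf1 nearly level. The annotation used here does not say which isoform of Srebf1 its probe set detects.

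Insig1, which retains Scap and is itself a sterol-responsive gene, had a signal of 733 under the Smad4-siRNA label and 219 under the control label, 3.35-fold higher. Insig2, its relative that also retains Scap, had a signal of 937 under the Smad4-siRNA label and 388 under the control label. Its 3 probe sets had log2 ratios of 1.11, 1.18 and 1.27, but of 0.73, 0.88 and 0.89 as deposited, all within 2-fold. Scap had a signal of 472 under the Smad4-siRNA label and 231 under the control label. Its log2 ratio of 1.03, just past 2-fold, was 0.73 as deposited. A dim Scap probe set below the floor in the control was at least 1.67-fold higher. Stard4, which carries cholesterol between membranes, had a signal of 206 under the Smad4-siRNA label and 232 under the control label. Its probe sets went both ways, with log2 ratios of -0.17, 0.00 and 0.79.

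The genes that supply acetyl-CoA and build the fatty acid chain were level except for Acss2. Of 4 genes, 1 was past 2-fold upward and 3 within it, with a median log2 ratio of 0.32. Fasn, the fatty acid synthase, had a signal of 311 under the Smad4-siRNA label and 284 under the control label, a log2 ratio of 0.13 that was -0.17 as deposited. Acaca, the carboxylase that makes malonyl-CoA, had a signal of 173 under the Smad4-siRNA label and 140.0 under the control label. Its log2 ratio was 0.31, and a dim probe set below the floor in the control was at least 1.17-fold higher. Acly, which splits cytosolic citrate into acetyl-CoA, had a signal of 1260.3 under the Smad4-siRNA label and 997 under the control label. Its 3 probe sets on both arrays had log2 ratios from 0.22 to 0.34, but from -0.10 to -0.06 as deposited, so the direction for Acly, as for Fasn, depended on the scaling.

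Acss2, which makes acetyl-CoA from acetate, stood apart from the other genes of this group. Its brightest probe set had a signal of 209 under the Smad4-siRNA label and 34.5 under the control label, 6.07-fold higher. A dimmer probe set had signals of 166 and, short of the floor, 12.4 in the control, and was at least 7.28-fold higher. The last one had signals of 41.6 and 42.6 and a log2 ratio of -0.03, so the probe sets of Acss2 disagreed.

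The elongases went in different directions. Elovl6, which lengthens saturated and monounsaturated C16 chains, had a signal of 346 under the Smad4-siRNA label and 91.4 under the control label. It was 3.78-fold higher, with a log2 ratio of 1.96 in its other probe set on both arrays. A dim one below the floor in the control was at least 1.01-fold higher. Elovl1, which lengthens very long saturated chains, had a signal of 342 under the Smad4-siRNA label and 585 under the control label. Its 3 probe sets on both arrays had log2 ratios from -0.77 to -0.48. A dim one, below the floor under the Smad4-siRNA label, was at least 1.13-fold lower. Elovl5, which lengthens polyunsaturated chains, had a signal of 1427 under the Smad4-siRNA label and 2022 under the control label, with log2 ratios of -0.50 and -0.24. Both Elovl1 and Elovl5 were below 0 in every probe set measured on both arrays, by less than 2-fold after normalization. As deposited, the brightest Elovl1 probe set had a log2 ratio of -1.12 and passed 2-fold, and the brightest of Elovl5 had -0.85.

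Among the 5 desaturases, 4 were past 2-fold upward and 1 within it, with a median log2 ratio of 1.62. Scd1, which places the double bond that turns stearate into oleate, had a signal of 1767 under the Smad4-siRNA label and 173 under the control label. It was 10.2-fold higher, the highest ratio of the 35 genes, with a log2 ratio of 2.71 in its other probe set. Scd2, a stearoyl-CoA desaturase like Scd1, had a signal of 2772 under the Smad4-siRNA label and 1179 under the control label. It was 2.35-fold higher, with log2 ratios of 1.44 and 1.35 in its other probe sets, and 0.91 as deposited in the brightest. Thus Scd1 had the larger ratio in each of its probe sets than Scd2 in any of its own. The genes lie near each other on chromosome 19, where Scd3, the first of the cluster in the annotation, was below the floor on both arrays (signals of 6.61 and 13.6).

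Fads1 and Fads2, the delta-5 and delta-6 desaturases of polyunsaturated fatty acid synthesis, were higher, while Fads3 was lower. Fads2 had a signal of 402 under the Smad4-siRNA label and 68.7 under the control label, 5.86-fold higher, with a log2 ratio of 3.29 in its other probe set on both arrays. Fads1 had a signal of 1313 under the Smad4-siRNA label and 426 under the control label, 3.08-fold higher, but a dimmer probe set had a log2 ratio of 0.50. Fads3, a desaturase that acts on sphingoid bases, had a signal of 197 under the Smad4-siRNA label and 375 under the control label, 1.90-fold lower. Its other probe sets had signals of 133 and 341 (log2 ratio -1.36) and of 19.3, below the floor, and 72.2 (at least 3.17-fold lower). As deposited the brightest probe set had a log2 ratio of -1.22, past 2-fold. Fads3, Fads2 and Fads1 are immediate neighbours in this order on chromosome 19, so the sign of the log2 ratio changed between adjacent genes.

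**Figure D3:**
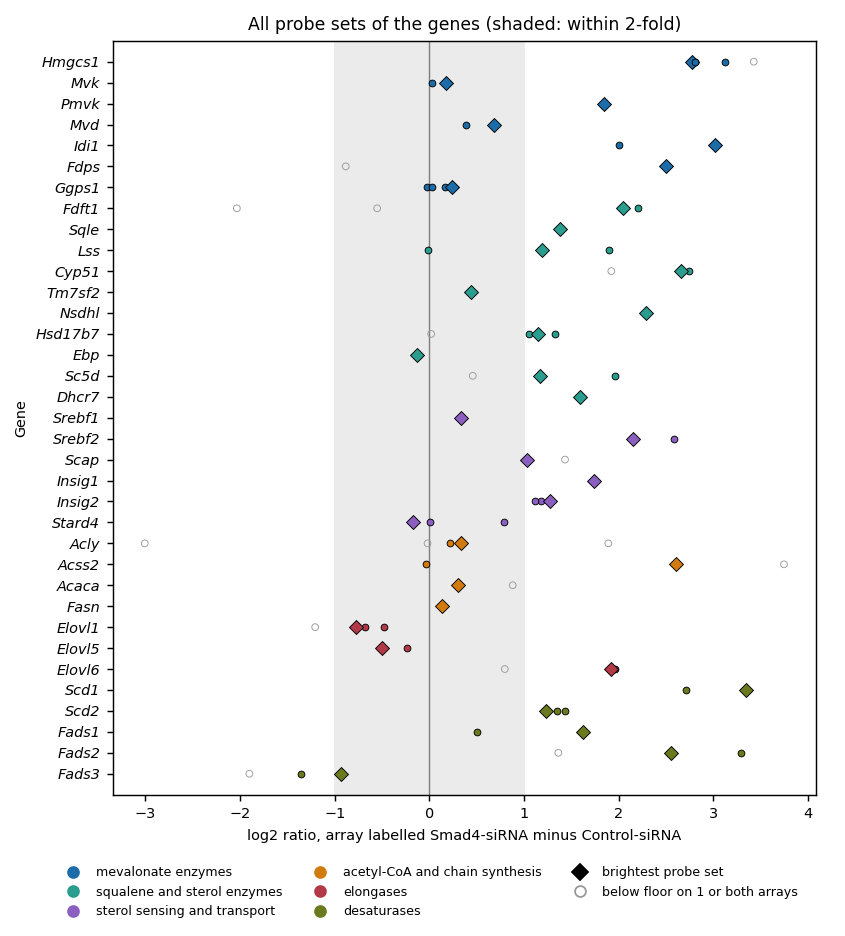
Log2 ratio (array labelled Smad4-siRNA minus Control-siRNA) of all 86 probe sets, by gene and coloured by role. Diamonds are the brightest probe set of a gene, circles the others, grey open circles those below the floor on 1 or both arrays, and the shaded band is within 2-fold. All filled points of Hmgcs1, Insig2 and Scd2 lie right of the band, whereas those of Lss, Acss2 and Fads1 spread into it.

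Probe sets of the same gene mostly gave the same call. Of 23 genes with at least 2 probe sets measured on both arrays, 15 were at least 2-fold higher by the brightest, and in 12 of these every such probe set was at least 2-fold higher. The other 3 were Lss, Acss2 and Fads1, as described above. A further 7 higher genes (Pmvk, Fdps, Sqle, Nsdhl, Dhcr7, Scap and Insig1) had 1 probe set measured on both arrays and so no such check. Probe sets of Ggps1, Lss, Stard4 and Acss2 had log2 ratios of both signs.

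Further genes of sterol and fatty acid metabolism, also listed with earlier results of these data known, differed less as a group. Of 65 such genes, 11 are not analysed here, 6 were below the floor on both arrays and 48 were measured on at least 1. Of the 48, counting a signal below the floor as the floor, 15 passed 2-fold upward, 5 downward and 28 neither. Among all 11581 genes measured on at least 1 array the shares were 16.0% higher and 15.8% lower. Their median log2 ratio was 0.47, beside -0.14 over those genes and 1.23 over the 35 genes above.

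The remaining enzymes of the sterol and isoprenoid routes (8 measured) gave 1 higher, 1 lower and 6 between. Msmo1, the sterol methyl oxidase that acts with Nsdhl and Hsd17b7, was the higher one, with a signal of 1084 under the Smad4-siRNA label and 294 under the control label, 3.69-fold higher, and Pdss2, of ubiquinone synthesis, was the lower one (2.67-fold). Both are named after their values were seen. SREBP processing and liver X receptor genes (10 measured) gave 2 higher, 1 lower and 7 between. The 2 were Mbtps1, the first protease that cleaves SREBPs (2.21-fold), and Lpin1, a phosphatidate phosphatase (3.001-fold), and the lower one was Erlin1, a membrane protein in Insig and reductase turnover (2.58-fold). These too were named after their values were seen. Mbtps2, the second SREBP protease, was named beside Mbtps1 and had a log2 ratio of -0.36.

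Sterol uptake, storage and efflux genes (10 measured) gave 4 higher, 1 lower and 5 between, and the cholesterol exporters went opposite ways. Abca1, which loads cholesterol onto apolipoproteins, had a signal of 1537 under the Smad4-siRNA label and 377 under the control label. It was 4.07-fold higher, with log2 ratios of 1.80 and 1.59 in its other probe sets. Abcg1, which exports cholesterol to high-density lipoprotein, had a signal of 47.99 under the Smad4-siRNA label and 879 under the control label, 18.3-fold lower, and was the lowest of these genes. Mylip, a ligase that degrades lipoprotein receptors, had a signal of 742 under the Smad4-siRNA label and 15.9 under the control label, the latter below the floor. It was at least 32.6-fold higher, and was named after its values were seen.

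Other fatty acid synthesis genes (11 measured) gave 5 higher, 0 lower and 6 between, and NADPH-supplying enzymes (3 measured) gave 2 higher and 1 between. Idh1, the cytosolic isocitrate dehydrogenase that yields NADPH, had a signal of 1599.9 under the Smad4-siRNA label and 221 under the control label. It was 7.24-fold higher and had the highest ratio of the further genes measured on both arrays. Genes that activate or esterify fatty acids (6 measured) gave 1 higher, 2 lower and 3 between, and the acyl-CoA synthetases were on both sides. Acsl3 had a signal of 647 under the Smad4-siRNA label and 121 under the control label, 5.36-fold higher. Acsl5 had a signal of 326 under the Smad4-siRNA label and 1016 under the control label, 3.12-fold lower. Acsl4, which prefers arachidonate, had a signal of 278 under the Smad4-siRNA label and 783 under the control label. It was 2.82-fold lower, with log2 ratios of -2.10 and -2.33 in its other probe sets.

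**Figure D4:**
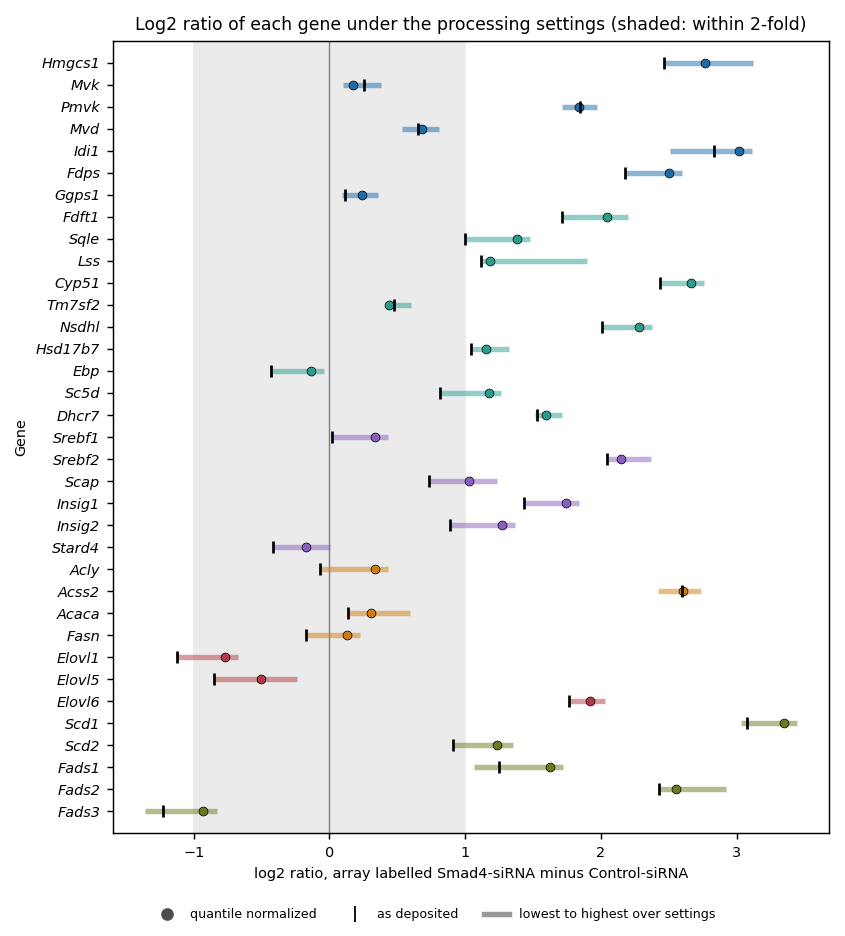
Log2 ratio (array labelled Smad4-siRNA minus Control-siRNA) of each of the 35 genes, coloured by role, after quantile normalization (circles) and for the values as deposited (black ticks), with a band from the lowest to the highest value over the settings tried. The shaded area is within 2-fold. All 22 genes right of the shaded area after normalization stay above 0 in every setting, and Sqle, Sc5d, Scap, Insig2 and Scd2 fall inside it as deposited.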

How the data were processed

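The submitters' processing notes name MAS5 for the deposited values, which are linear signal intensity per probe set. The version of MAS5, its target and its calls of presence are not stated in the sources used here. Of 45101 probe sets, 64 controls were left out, 34945 of the remaining 45037 had 1 gene, 932 several and 9160 none here. Symbols of the platform annotation, some of them old, were updated through Entrez identifiers to RefSeq for GRCm38.p6. Because the 2% trimmed means of the arrays were 114 and 138, log2 signals were quantile normalized. The probe set with the highest mean log2 signal stood for a gene. With 1 side below the floor, the ratio of the other side to the floor is a bound ("at least N-fold"). With 1 array per group no test was made. Python 3.11.15, pandas 2.3.3, scipy 1.17.1 and statsmodels 0.14.6 were used.

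The members and lists were chosen with earlier results of these data known. All members are described. Of the further genes, the 3 highest and 3 lowest log2 ratios among those measured on both arrays were named by rule. A pair listed by name is not analysed here. Scd3, Msmo1, Pdss2, Mbtps1, Mbtps2, Lpin1, Erlin1 and Mylip were named outside this rule. Smad4, Xist and the Y-linked genes check the labels. Alternatives were other scalings, floors, a pseudocount, other choices of probe set and other folds.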

Additional observations from a re-analysis of the deposited data

How the results depend on the processing

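The count of member genes at least 2-fold higher (22 of 35) lay between 17 and 22 in the alternatives that kept 2-fold, over 32 to 35 genes, and their median log2 ratio (1.23) between 0.999 and 1.35. The count at least 2-fold lower, 0 in the main setting, was 2 for the values as deposited (Elovl1 and Fads3), 1 with deposited ratios centred on their median, 1 with the median over probe sets of a gene (Fads3 in both) and 2 when 1.5-fold replaced 2-fold. With 3-fold in place of 2-fold, 15 of the 35 were higher, beside 6.27% of all genes measured on both arrays. With 1.5-fold, 23 were higher and 2 lower, beside 21.0% and 28.9%. Of the 22 higher genes, 12 kept their call in each of 8 alternatives in scaling, floor, pseudocount or probe set, and all 22 stayed above 0. With a floor at the 75th percentile Pmvk, Lss, Hsd17b7, Dhcr7 and Acss2 had bounds under 2-fold, because their Control-siRNA signals then fell below it, and with the median over probe sets, which takes in a dim probe set below the floor in the control, Scap had a bound of 0.88 on the log2 scale, short of 2-fold. Single values moved by more than 0.47 in 3 cases, which were Idi1 (2.51) and Fads1 (1.06) with the median over probe sets and Lss (1.90) without suffixed probe sets. Among the 13 genes within 2-fold, Stard4, Acly and Fasn had either sign across alternatives. Over all genes measured on both arrays, 1195 were at least 2-fold higher and 1426 lower, and 993 and 1978 as deposited, 1135 and 1628 with the centred deposited ratios and 1341 and 1191 with a lowess trend (fraction 0.3) removed. No paired analysis was possible because each group has 1 array. Signals near the floor of 22.8 limit what the ratios of Lss and Acss2 can show, for level and higher probe sets alike. The level ones had 46.0 and 46.4 (Lss) and 41.6 and 42.6 (Acss2). Among the higher ones, the control signal was 34.1 for Lss at a log2 ratio of 1.90. It was 34.5 for the brightest of Acss2.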
